A study of Homo sapiens with 2 samples.

Results

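The aminoacyl-tRNA synthetases are the enzymes that join each amino acid to its transfer RNA, and 35 of their genes, 19 cytosolic and 16 mitochondrial, are described here out of 28303 genes with a deposited value. The genes were taken from a fixed list of names, with no use of their values, and each current symbol matched 1 Ensembl gene ID. The annotation used, GENCODE release 29, lists some of them under the older name without the final 1. The 2 libraries were made from RNA of HGC27, a line of human gastric cancer cells. The cells of the control library had received the plasmid pcDNA3.1-control by transfection with Turbofect, and those of the overexpression library pcDNA3.1-linc01133, which carries the long non-coding RNA LINC01133, 48 h before harvest. Both groups shared the cell line and the transfection, and each held 1 library, so the differences below compare these libraries and have no replicate check.

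Cells keep mostly separate enzymes for protein synthesis in the cytosol and in mitochondria, encoded in the nucleus, and the mitochondrial ones are imported. By the fold of the catalytic domain the enzymes fall into class I and class II. Several cytosolic enzymes sit together in the multi-synthetase complex, held by the scaffold proteins AIMP1, AIMP2 and EEF1E1. Many cytosolic synthetase genes are known targets of ATF4, the transcription factor of the amino acid and unfolded protein responses.

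The synthetase transcripts differed in base composition, and the following coding stretches are shown because the difference between the libraries followed it. Each is 60 bases from the middle of the longest coding exon, read 5′ to 3′ on the strand of the gene from GENCODE release 29 transcripts (GRCh38), with G and C in capitals. Among the genes past the filter given below that also have an entry in the promoter table used further on, they belong to the 3 with the highest and the 3 with the lowest log2 ratio.
RARS1, chr5:168517909-168517968, plus strand, exon 14 of 15: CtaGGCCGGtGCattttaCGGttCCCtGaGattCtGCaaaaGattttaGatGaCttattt
EPRS1, chr1:219997133-219997192, minus strand, exon 18 of 32: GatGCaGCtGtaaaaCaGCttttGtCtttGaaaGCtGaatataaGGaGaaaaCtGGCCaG
NARS1, chr18:57607525-57607584, minus strand, exon 8 of 14: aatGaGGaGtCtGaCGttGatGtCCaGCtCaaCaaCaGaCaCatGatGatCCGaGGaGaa
FARSA, chr19:12924694-12924753, minus strand, exon 11 of 14: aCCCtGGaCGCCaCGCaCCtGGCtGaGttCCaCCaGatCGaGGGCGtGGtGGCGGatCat
WARS1, chr14:100361785-100361844, minus strand, exon 3 of 11: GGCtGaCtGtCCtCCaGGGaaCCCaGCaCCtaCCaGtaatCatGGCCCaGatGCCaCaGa
SARS1, chr1:109235291-109235350, plus strand, exon 7 of 12: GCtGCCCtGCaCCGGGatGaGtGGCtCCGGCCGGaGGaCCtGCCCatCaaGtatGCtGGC

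The stretches of RARS1, EPRS1 and NARS1 held 40.0%, 40.0% and 46.7% G and C, and those of FARSA, WARS1 and SARS1 held 65.0%, 58.3% and 68.3%. Over the whole transcript the GC content was 41.4%, 43.2% and 44.3% in the first set and 60.3%, 51.8% and 51.5% in the second. The first set was higher in the overexpression library and the second lower, because the genes were picked by that ratio. LARS1 (log2 ratio 0.90), VARS1 (-0.56) and VARS2 (-0.64) were more extreme than some of these but had no promoter entry.

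Levels are given as FPKM, fragments scaled by exon length and library depth. The length is that of all annotated exons of a gene merged, which exceeds that of 1 transcript unevenly. For CARS1 it is 10037 bases beside a transcript of 2758, and for FARSB 3369 beside 3369. Comparisons of level between genes depend on this length, while the ratio of a gene between the libraries does not. The depth, recovered from the values, was 15666629 fragments for the control library and 16302584 for the overexpression library. LINC01133 itself had 4 and 74 fragments, a ratio of 17.8 (95% counting interval 6.66 to 67.0). Genes of the mitochondrial genome took 10.3% and 10.2% of the fragments. Of 9 epithelial markers with a value, 0 averaged 1 FPKM or more over the libraries, and their summed FPKM was 2.08 and 1.79, with KRT18 at 0 in both libraries, while 6 of 7 mesenchymal markers passed, with VIM at 198 and 210. The 6 fibroblast markers all passed, with summed FPKM of 586 and 566, 2 of the 6 gastric lineage markers with a value passed (GATA4 and GATA6), and the 2 blood and endothelial markers with a value summed to 0.0858 and 0.0896. What these markers contribute to the values below was not tested, and in such bulk RNA fewer cells expressing a gene cannot be told apart from less RNA per cell.

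All 19 cytosolic genes were expressed in both libraries, at 10.8 to 173 FPKM in the control library and 8.55 to 128 with overexpression. The median was 42.9 and 44.99 FPKM. The most abundant in the control was FARSA, the catalytic subunit of phenylalanyl-tRNA synthetase, followed by VARS1 (valine), AARS1 (alanine), GARS1 (glycine) and SARS1 (serine). In the overexpression library the order was GARS1, FARSA, VARS1, AARS1 and IARS1 (isoleucine). The lowest in both was CARS1 (cysteine), a place that rests on its merged exon length of 10037 bases. The order at the top rests on merged lengths too. That of SARS1 is 3836 bases beside a transcript of 1882, and that of FARSA 2435 beside 2057. Mitochondrial genes were lower, with medians of 9.00 and 10.2 FPKM over the 15 that passed the filter, an average of 1 FPKM or more. The highest of these was IARS2, with 40.9 and 55.3 FPKM.

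**Figure D1:**
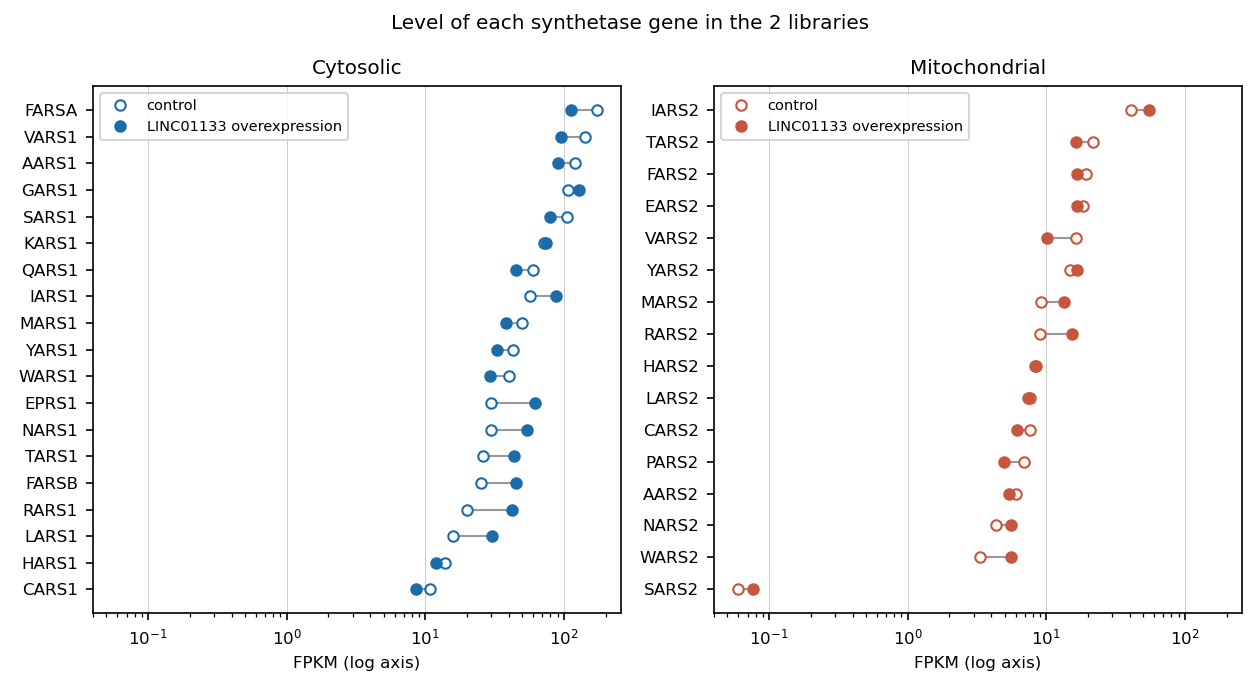
FPKM (log axis) of the 35 synthetase genes, cytosolic on the left and mitochondrial on the right, in order of the control level; open circles are the control library and filled circles the overexpression library, 1 library each. The highest cytosolic genes, FARSA, VARS1 and AARS1, have lower values in the overexpression library, while EPRS1, NARS1, TARS1, FARSB, RARS1 and LARS1 have higher ones, and SARS2 lies far below the others.

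The synthetase genes together took nearly the same share of both libraries. Over the 18 cytosolic genes with whole fragment counts, 85323 fragments made up 0.545% of the control (exact 95% binomial interval 0.541 to 0.548) and 88543 made up 0.543% of the overexpression library (0.540 to 0.547). The 13 mitochondrial genes with whole counts took 0.0734% (0.0720 to 0.0747) and 0.0732% (0.0719 to 0.0746). The intervals overlapped in both groups. They and all intervals below take in counting error alone, because copies of 1 molecule made by PCR cannot be recognised in these values.

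Single genes differed more than these totals. Of the 34 synthetase genes that passed the filter, 2 had at least 2-fold more FPKM + 1 with overexpression and 0 at least 2-fold less. Over all 11945 passing genes 11.9% were that much higher and 0.444% that much lower, so the synthetases' 5.88% was not above the background. At 1.5-fold, 9 were higher and 2 lower, beside 26.8% and 5.29% of all genes, again close to the background (26.5% and 5.88% of the synthetases). The median log2 ratio of FPKM + 1, overexpression over control, was -0.21 in the cytosolic and -0.04 in the mitochondrial group, against 0.10 over all genes. Among genes averaging 5 FPKM or more these medians were -0.21, -0.14 and -0.10. The log2 ratios ran from -0.64 to 1.05, with 15 above 0 and 19 below, beside 6619 above and 5326 below over all genes.

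**Figure D2:**
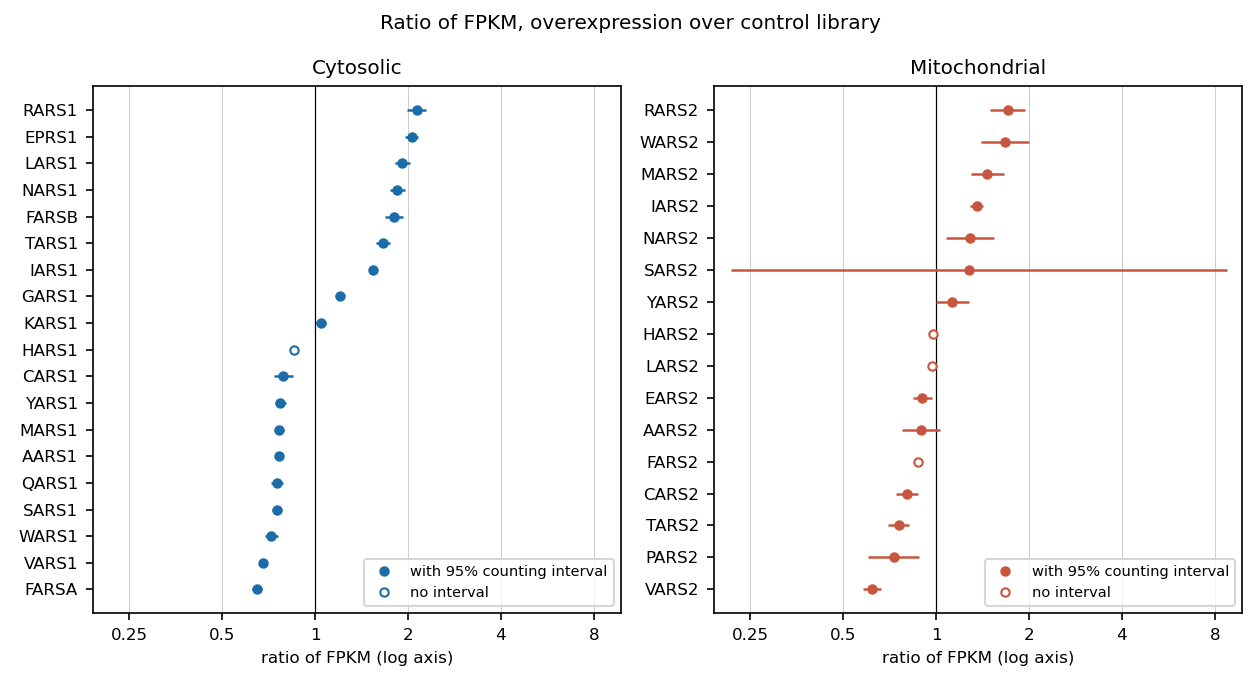
Ratio of FPKM, overexpression over control (log axis), for the 35 genes, with bars for the 95% counting interval; open circles are the 4 genes without whole fragment counts and so without an interval. RARS1 and EPRS1 lie above 2, FARSA and VARS2 lie lowest, and the interval of SARS2 runs from 0.217 to 8.75.

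Counting error was small beside these differences. Of the 30 synthetases past the filter with whole counts, 15 had an interval of the ratio above 1, 14 below 1 and 1 (AARS2) across it. The 15 include YARS2, whose interval began at 1 after rounding, so its place is not firm. Over all such genes 42.6% lay above and 32.2% below. An interval that leaves out 1 says that the libraries differ beyond counting, and not that the plasmid made them differ.

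Enzymes of the multi-synthetase complex held both genes that were at least 2-fold higher, 2 of 7 beside 11.9% of all genes past the filter. RARS1 (arginine; chromosome 5, 168486445 to 168519299, plus strand) had an FPKM of 19.98 (18.8 to 21.2) in the control library and 42.6 (40.9 to 44.3) with overexpression, from 1071 and 2375 fragments. Its ratio was 2.13 (1.98 to 2.29). EPRS1, whose single protein charges both glutamate and proline (chromosome 1, 219968601 to 220046658, minus strand), had 29.97 (28.8 to 31.2) and 61.7 (60.03 to 63.3), a ratio of 2.06 (1.96 to 2.16). Both were just past the threshold: their log2 ratios of 1.05 and 1.02 became 0.95 and 0.91 when scaled by the median of ratios, 0.86 and 0.82 when scaled by trimmed means, and 0.98 and 0.94 when scaled by upper quartiles, all under 2-fold. Trimmed-mean scaling took the median of all genes from 0.10 to -0.07.

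The other enzymes of the complex lay on both sides of 1. LARS1, the leucine enzyme that also takes part in leucine sensing, had 15.8 and 30.4 FPKM, a ratio of 1.92 (1.82 to 2.03). IARS1 had 56.9 and 87.7, a ratio of 1.54 (1.49 to 1.59). KARS1, which charges lysine in the cytosol and, by alternative splicing, in mitochondria, was nearly level, with 71.7 and 74.9 and a ratio of 1.045 (1.004 to 1.09). MARS1 (methionine) was lower, with 50.04 and 38.3, a ratio of 0.764 (0.735 to 0.796), and so was QARS1 (glutamine), with 59.7 and 44.96, a ratio of 0.753 (0.720 to 0.787). Thus 5 of 7 were above 0 on the log2 scale and 2 below, with a median of 0.62. Of all 11945 genes past the filter, 6619 were above 0 and 5326 below, with a median of 0.10. The 12 cytosolic genes outside the complex had 4 above and 8 below, with a median of -0.34. This grouping was made after the values were seen. The 2 sets differed in base composition too, with a median GC content of 43.6% in the complex and 51.7% outside it. With trends on GC content and length subtracted the medians were 0.18 and -0.07, and the part of base composition in the difference was not tested further. The levels within the complex were closer together in the overexpression library, where the highest was 2.89 times the lowest, while it was 4.53 times in the control library.

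The subunits of phenylalanyl-tRNA synthetase lay on opposite sides of 1. The enzyme is a tetramer of paired alpha subunits, encoded by FARSA, and beta subunits, encoded by FARSB. FARSA (chromosome 19, 12922479 to 12934037, minus strand) had 173 (169 to 178) and 112 FPKM (109 to 116), a ratio of 0.648 (0.623 to 0.673). FARSB (chromosome 2, 222570536 to 222656337, minus strand) had 25.05 (23.7 to 26.4) and 44.99 (43.2 to 46.8), a ratio of 1.80 (1.68 to 1.92). The FPKM of FARSA was thus 6.92 times that of FARSB in the control library and 2.495 times with overexpression. The FARSA transcript is GC-rich (60.3%) and that of FARSB is AT-rich (41.6% GC). With the trends subtracted the log2 ratios went from -0.62 and 0.82 to -0.11 and 0.22.

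Among the other cytosolic enzymes outside the multi-synthetase complex, NARS1 (asparagine) and TARS1 (threonine) were higher. NARS1 had 29.6 and 54.6 FPKM, a ratio of 1.84 (1.74 to 1.95), and TARS1 had 26.2 and 43.4, a ratio of 1.66 (1.58 to 1.75). GARS1, which supplies both the cytosol and mitochondria from 1 gene, had 106 and 128, a ratio of 1.202 (1.16 to 1.24). Each of these intervals lay above 1.

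The remaining cytosolic enzymes outside the multi-synthetase complex were lower in the overexpression library. VARS1 had 141 and 95.9 FPKM, a ratio of 0.678 (0.660 to 0.696), the lowest of the cytosolic genes after FARSA. WARS1, the tryptophan enzyme known for its induction by interferon gamma, had 40.5 and 29.2, a ratio of 0.721 (0.688 to 0.756). The ratios of SARS1 (105 and 79.1 FPKM), AARS1 (120 and 91.5), YARS1, the tyrosine enzyme (42.9 and 33.1), and CARS1 (10.8 and 8.55) lay close together, from 0.752 to 0.788, and the interval of each was below 1. HARS1 (histidine) had 13.9 and 11.9 FPKM, a ratio of 0.855, with no interval because its values were not whole fragments. Exons of HARS1 and its neighbour HARS2 overlap on opposite strands, over 8.38% of the exon bases of HARS1 and 11.7% of those of HARS2, and on the opposite strand 12.4% of those of MARS1 are shared with ARHGAP9 and 10.6% of those of WARS1 with AL157871.4, so these values are less certain.

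Of the 15 mitochondrial synthetases past the filter, 6 were above 0 on the log2 scale, 9 below, and none reached 2-fold. RARS2 (arginine) had 9.00 and 15.4 FPKM, from 359 and 637 fragments, and a ratio of 1.71 (1.496 to 1.95). WARS2 (tryptophan) had 3.32 and 5.55, a ratio of 1.67 (1.40 to 1.99985). MARS2 (methionine) had 9.18 and 13.4, a ratio of 1.46 (1.29 to 1.65). The other 3, IARS2 (isoleucine), NARS2 (asparagine) and YARS2 (tyrosine), had ratios of 1.35, 1.29 and 1.13. On the log2 scale YARS2 turned to below 0 under trimmed-mean scaling, and KARS1 of the cytosolic group under all 3 scalings.

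At the low end stood VARS2 (valine; chromosome 6, 30908242 to 30926459, plus strand), with 16.4 and 10.2 FPKM and a ratio of 0.621 (0.580 to 0.664), the lowest of all 35 genes. Its exons share 22.0% of their bases with GTF2H4 on the same strand. PARS2 (proline) had 6.85 and 4.99, from 252 and 191 fragments, and TARS2 (threonine) had 21.7 and 16.4, with ratios of 0.728 (0.6003 to 0.883) and 0.756 (0.698 to 0.819). CARS2 (cysteine) and EARS2, which charges glutamate and in mitochondria also the tRNA for glutamine, had ratios of 0.806 (0.742 to 0.876) and 0.901 (0.840 to 0.966). AARS2 (alanine) had 6.03 and 5.39, and its ratio of 0.895 had an interval of 0.776 to 1.03, so no difference was detectable at 406 and 378 fragments. FARS2 (phenylalanine), HARS2 (histidine) and LARS2 (leucine) carried no interval and had ratios of 0.870, 0.980 and 0.968.

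SARS2 (serine; chromosome 19, 38915266 to 38930896, minus strand) did not pass the filter. Its counts were 3 fragments for the control library and 4 with overexpression, an FPKM of 0.0593 (0.0122 to 0.173) and 0.0759 (0.0207 to 0.194). The ratio of 1.28 had an interval of 0.217 to 8.75, too wide to show a difference. Of its exon bases 46.2% are shared with AC011455.2 on the same strand and 10.8% with MRPS12 on the opposite strand, and how fragments in shared bases were counted is not given in the sources used here.

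Cytosolic and mitochondrial enzymes for the same amino acid did not share a direction in general. Of 12 such pairs with both genes past the filter, 3 were above 0 in both genes, 4 below 0 in both and 5 had opposite signs. The arginine pair (log2 ratios of 1.05 and 0.71), the isoleucine pair (0.62 and 0.43) and the asparagine pair (0.86 and 0.30) were higher in both, and all 6 transcripts were AT-rich, with 41.4% to 44.3% GC. The valine pair was lower in both (-0.56 and -0.64), with 62.6% and 60.2% GC. The tryptophan pair was opposite, with WARS1 at -0.46 and 51.8% GC and WARS2 at 0.60 and 42.4% GC, and so was the threonine pair, with TARS1 at 0.71 and 43.6% GC and TARS2 at -0.38 and 54.6% GC. By merged exon length the cytosolic gene had the higher FPKM in all 12 pairs in both libraries. It was 1.204 to 19.9 times higher in the control library and 1.39 to 16.95 times with overexpression. The cysteine pair has merged lengths of 10037 (CARS1) and 10460 bases (CARS2), beside transcripts of 2758 and 1879. The order of that pair is therefore not firm.

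Base composition ordered the synthetases as it ordered all genes. Each of the 11 synthetase genes with a transcript under 45% GC was higher in the overexpression library, with log2 ratios of 0.30 to 1.05 and a median of 0.71. All 17 with 50% GC or more were lower, with log2 ratios of -0.64 to -0.04 and a median of -0.38. Of the 6 between, 4 were higher and 2 lower. Over all genes past the filter the same bins, set after the values were seen, had medians of 0.77 over 4213 genes, 0.19 over 2056 and -0.27 over 5644, and 95.3%, 72.6% and 19.3% of the genes were above 0. Across the 34 synthetase genes, which share both libraries, the Spearman correlation between GC content and log2 ratio was -0.891 and the Pearson correlation -0.894. Within the cytosolic group Spearman's value was -0.902 (19 genes), within the mitochondrial group -0.918 (15 genes), and over all 11913 genes with a GC content -0.801. Class I genes (18, median log2 ratio -0.09) and class II genes (15 past the filter, median -0.14) had the same order, with Spearman correlations of -0.936 and -0.818. EPRS1, which joins a domain of each class, is counted in neither.

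**Figure D3:**
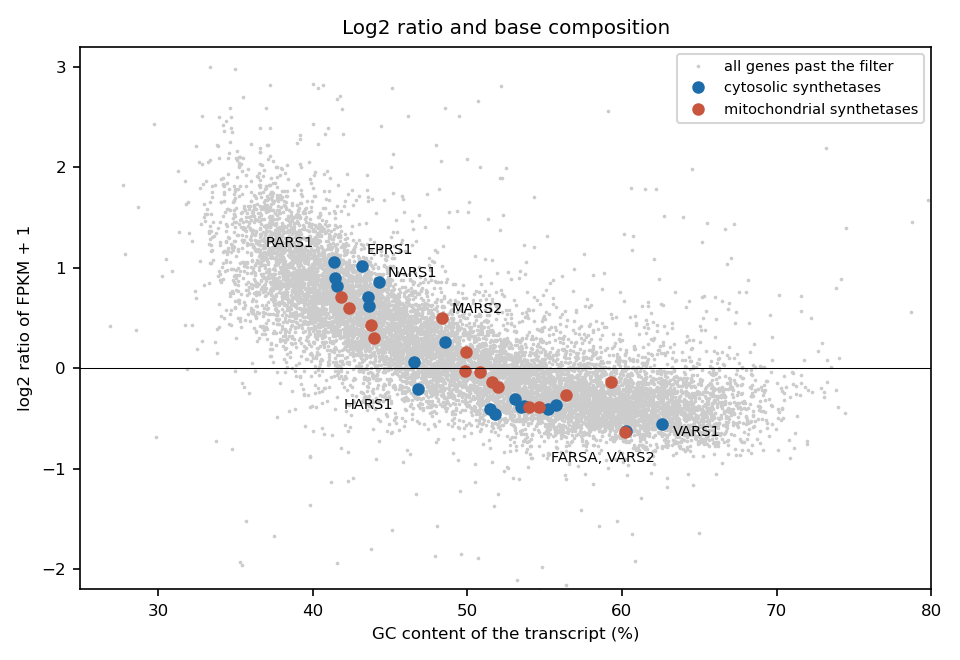
Log2 ratio of FPKM + 1, overexpression over control, against the GC content of the transcript in percent; small grey points are all genes past the filter with a GC content, larger points the 34 synthetase genes by compartment. The synthetases run from RARS1 at 41.4% GC and 1.05 to VARS1 at 62.6% and -0.56, along the band of all genes; 13 genes lie outside the plotted range.

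Subtracting the trends of all genes on GC content and length drew the synthetases together. The log2 ratios then ran from -0.35 to 0.53, none was at least 2-fold in either direction, and 23 of 34 lay within 0.25 of 0. The median was -0.05 in the cytosolic and 0.08 in the mitochondrial group, against 0.10 over all genes. Of the 34, 8 changed sign (KARS1, AARS2, CARS2, EARS2, FARS2, HARS2, LARS2 and NARS2). The subtraction keeps the median of all genes, 0.10, so a change of sign is not a crossing of the trends. A weaker order by GC content was still present, with a Spearman correlation of -0.557 across the 34 synthetases, against 0.061 over all genes.

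The highest log2 ratios with the trends subtracted were those of EPRS1 (0.53), NARS1 (0.52), MARS2 (0.49) and RARS1 (0.49), and the lowest those of HARS1 (-0.35), WARS1 (-0.27) and VARS2 (-0.21). These values keep the median of all genes, 0.10, so a gene on the trends lies there and not at 0. MARS2, a gene of moderate GC content (48.4%), was hardly moved by the subtraction, from 0.50 to 0.49, and so was GARS1, from 0.26 to 0.28. NARS1, at 44.3% GC, had a log2 ratio of 0.86, where the GC trend of all genes stood at 0.45. LARS1, the third highest cytosolic gene, lay closer to its trend, with 0.90 where the trend stood at 0.71.

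**Figure D4:**
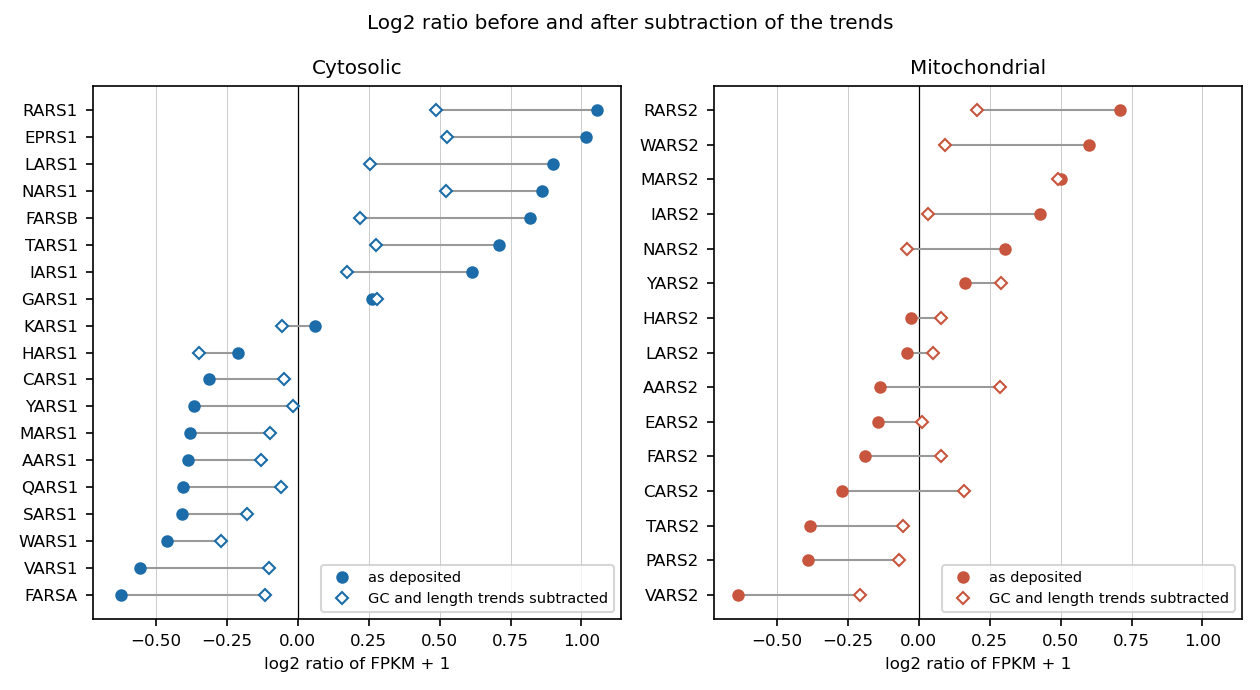
Log2 ratio of FPKM + 1 of the 34 synthetase genes past the filter as deposited (filled circles) and with the GC content and length trends of all genes subtracted (open diamonds). RARS1 goes from 1.05 to 0.49 and FARSA from -0.62 to -0.11, while MARS2 and GARS1 hardly move.

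Promoters were searched for the ATF4 element because ATF4 is a known regulator of cytosolic synthetase genes. Sequences 250 bases before to 50 bases after the annotated start came from RefSeq (GRCh38.p14), with an entry for 30 of the 35 genes, and AARS2, LARS1, VARS1, VARS2 and YARS1 had none. The letters TGATGNAA, on either strand (TTNCATCA when read along the gene on the other strand), were found in 8 of the 30 genes. They were in 7 of 16 cytosolic genes (43.8%) and 1 of 14 mitochondrial genes (7.14%), beside 3.62% of all 35116 promoter windows of that length and 4.46% of the 27305 genes, some with several starts. The 24 bases around each match are printed along the strand of the gene, with the 8 matching letters in capitals.
TARS1, chr5:33440959-33440982, plus strand: cctttcgaTTGCATCAgctggtcc
GARS1, chr7:30594837-30594860, plus strand: cgcggcgaTTTCATCAtgctccga
IARS1, chr9:92293695-92293718, minus strand: tcagcgcgTTGCATCAcctccgtg
CARS1, chr11:3057410-3057433, minus strand: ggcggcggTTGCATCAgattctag
MARS1, chr12:57488056-57488079, plus strand: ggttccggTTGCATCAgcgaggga
AARS1, chr16:70289678-70289701, minus strand: tctcgcagTTGCATCAgccaagtt
NARS1, chr18:57621807-57621830, minus strand: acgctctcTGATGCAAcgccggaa
YARS2, chr12:32756079-32756102, minus strand: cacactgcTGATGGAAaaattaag

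Of the 8 matches, 6 began within 33 bases of the annotated start, at offsets of -33 (GARS1), -13 (IARS1), -4 (MARS1), -2 (CARS1), 2 (TARS1) and 14 (NARS1), and those of AARS1 and YARS2 began at -187 and -197. Genes with the letters did not share a direction. Of the 7 cytosolic genes with a match, TARS1, GARS1, IARS1 and NARS1 were above 0 and CARS1, MARS1 and AARS1 below, with a median log2 ratio of 0.26. Of the 9 cytosolic genes in the table without a match, 4 were above 0 and 5 below, with a median of -0.21. A match of letters is a description of the window and not a measured binding site.

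The other genes of the ATF4 response had a median log2 ratio of -0.10 over 24 genes. In FPKM + 1, 1 was at least 2-fold higher (4.17%) and 0 lower, beside 11.9% and 0.444% of all genes past the filter. The median of the list was -0.27 under trimmed-mean scaling, -0.19 by the median of ratios and -0.16 by upper quartiles. It was -0.20 over the 21 genes averaging 5 FPKM or more. With the trends subtracted it was -0.145, where the median of all genes was 0.10. ATF4 itself had 336 and 260 FPKM, a ratio of 0.773 (0.754 to 0.794). Its transcript has 56.7% GC, and its log2 ratio went from -0.37 to 0.06 with the trends subtracted. SLC7A11, the cystine transporter, had 2.38 and 8.48, a ratio of 3.57 (3.17 to 4.02), with the GC content of its transcript at 35.4%. The kinase EIF2AK3 (log2 ratio 0.85), the amino acid transporter SLC38A2 (0.84) and the pseudokinase TRIB3 (-0.81) followed. With the trends subtracted the values of these 4 became 0.26, 0.49, -0.13 and -0.32. Other genes share 8.97% of the exon bases of SLC7A11 and 15.1% of those of EIF2AK3 on the opposite strand.

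The list of scaffolds and relatives of the synthetases had a median of 0.04 over 12 genes past the filter, with 6 above 0 and 6 below. The sign of this median was not firm. It was -0.03 when scaled by the median of ratios, -0.10 by trimmed means and -0.01 by upper quartiles. With the trends subtracted it was -0.13, and with a prior of 10 fragments 0.25. None of the 12 was 2-fold apart in FPKM + 1, where 11.9% of all genes past the filter were 2-fold higher. In FPKM itself 3 were past 2-fold (AIMP1, DTD2 and SEPSECS). The complex's scaffold AIMP1 had 3.59 and 7.87 FPKM, a ratio of 2.19 (1.84 to 2.62), and DTD2, which removes wrongly attached amino acids from tRNA, had 1.83 and 3.78. Their log2 ratios of 0.95 and 0.76 became -0.10 and -0.04 with the trends subtracted. SEPSECS, which completes selenocysteine on its tRNA, was at 0.69 and EEFSEC, the elongation factor for that tRNA, at -0.60. With the trends subtracted these became -0.34 and -0.09, both below 0. Other genes share 11.6% of the exon bases of AIMP1 and 15.3% of those of EEFSEC on the opposite strand. On the same strand they share 16.3% of those of DTD2. The other scaffolds, named after their values were seen, were AIMP2, with 115 and 87.4 FPKM and a ratio of 0.760 (0.722 to 0.8004), with 28.9% of its exon bases shared with EIF2AK1 on the opposite strand, and EEF1E1, under the filter, with 6 and 50 fragments and a ratio of 8.01 (3.43 to 22.9). EEF1E1 shares 18.7% of its exon bases with a read-through gene on the same strand. Its transcript has 36.9% GC, close to the 36.3% of AIMP1. Being under the filter, it has no log2 ratio with the trends subtracted.

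Genes of tRNA maturation and export had a median of 0.14 over 27 genes, with 17 above 0 and 10 below. The median was -0.02 under trimmed-mean scaling, 0.06 by the median of ratios and 0.06 with the trends subtracted. In FPKM + 1, 2 were at least 2-fold higher (7.41%) and 0 lower, beside 11.9% and 0.444% of all genes past the filter. The 2 were SSB, the La protein that binds the ends of new tRNA transcripts, with 2.75 and 11.9 FPKM and a ratio of 4.33 (3.74 to 5.03), and TRNT1, which adds the terminal CCA, with 1.32 and 4.47 and a ratio of 3.39 (2.75 to 4.21). The tRNA exporter XPOT had 17.5 and 33.9, and TRMT10C, a subunit of mitochondrial RNase P, 9.43 and 18.6. With the trends subtracted the log2 ratios of SSB, TRNT1, XPOT and TRMT10C went from 1.78, 1.24, 0.91 and 0.91 to 0.82, 0.30, 0.19 and 0.14. Other genes share 11.2% of the exon bases of SSB and 10.8% of those of TRNT1 on the opposite strand.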

How the data were processed

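RNA from 2 libraries of HGC27 cells, selected by poly(A) tail per the labels' protocols, gave 1 deposited value for each gene. The labels name no unit, and it was read as FPKM, because deposited values times the merged exon length of GENCODE release 29 are whole multiples of 1 step per library, within 0.02 of a fragment, for 94.5% and 94.3% of 28109 genes with a length. The step gave the depth and the fragments behind each gene. GRCh38, HTSeq 0.6.0, HISAT2 2.1.0 and Bowtie2 2.2.3 are named per the submitters' processing notes. Their roles, the annotation, the strand setting and the treatment of shared bases are not given in the sources used here.

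The log2 ratio is that of FPKM + 1, which understates differences of low genes, over genes that averaged 1 FPKM or more. No test between groups was possible with 1 library each. Intervals are exact at 95%: Poisson for levels, Clopper-Pearson for shares and for ratios through the conditional binomial share. GC content and length are taken from the longest transcript that codes for protein and has a 3′ UTR; genes lacking one used their longest transcript. Trends were fitted by lowess (span 0.3) over all genes, on GC content and then on log length, and subtracted keeping the overall median. Calculations used Python 3.11.15, scipy 1.17.1 and statsmodels 0.14.6, and the interval, scaling and trend steps were tested on simulated data. Symbols were matched through a table of current names.

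The genes, lists and tests were chosen with earlier results of these data known. Named genes are all 35 synthetases, LINC01133 and, of each further list, the 4 genes past the filter with the largest absolute log2 ratio. ATF4 and the markers that describe the cells were also named. GC content was at first calculated from the longest transcript regardless of type, an error corrected after its results had been looked at. Alternatives were other scalings, filters, pseudocounts, fold thresholds and the subtraction of trends. Scalings were the median of ratios, the trimmed mean of M values and the upper quartile. Class and complex membership are textbook knowledge, and the grouping by complex was added after the values were seen. A planned search of the proteins for class I signature letters and of identity between partners was not done, as no protein sequences were used here.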

Additional observations from a re-analysis of the deposited data

How the results depend on the processing

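No paired analysis was possible because neither group had replicates, and none could be left out. The trimmed mean of M values removed a shift of 0.21 (log2) from all genes, median of ratios 0.11 and the upper quartile 0.08. Subtracting the GC content trend alone was chosen after seeing the data. The count of 2 synthetases at least 2-fold higher became 0 under each of these 3 scalings, with both trends or the GC content trend alone subtracted, and at 4-fold, and 9 at 1.5-fold. The count of 0 at least 2-fold lower became 2 at 1.5-fold. The cytosolic median of -0.21 became -0.40 by the trimmed mean of M values, -0.048 without both trends and -0.066 without that on GC content. The mitochondrial median of -0.04 became -0.22 by the trimmed mean of M values and 0.077 with both trends subtracted, and was 0.01 with a prior of 10 fragments, over the 12 genes with whole counts. The construction of these settings, a common shift or a subtracted trend, sets the direction of each move. With genes averaging 5 FPKM or more, the median of all genes went from 0.10 to -0.10. The cytosolic median stayed at -0.21 there, and the mitochondrial median was -0.14. A filter of 5 or none, a pseudocount of 0.1 and a prior of 10 fragments left the sign of each of the synthetases' log2 ratios they covered. Depth limits the low mitochondrial genes most, such as SARS2 with 3 and 4 fragments and WARS2 with 200 and 348.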

Other observations

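Within the glutamine route of mitochondria, which charges the tRNA with glutamate by EARS2 and then amidates it, the amidotransferase subunit QRSL1 had 3.77 and 6.19 FPKM, a ratio of 1.64 (1.43 to 1.89), while GATB had 2.11 and 1.70, a ratio of 0.805 (0.692 to 0.935), and GATC 3.03 and 2.75, a ratio of 0.906 (0.742 to 1.11). The GC contents of the 3 transcripts were 40.5%, 50.1% and 44.8%, and the log2 ratios with the trends subtracted were -0.13, -0.08 and -0.43. These genes were named after their values were seen.

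SARS2 stood apart from its neighbour MRPS12, a gene of the mitochondrial ribosome whose exons overlap it on the opposite strand. The counts of MRPS12 were 1039 fragments for the control library and 733 with overexpression, where SARS2 had 3 and 4. The deposited FPKM of SARS2 was 0.0593 and 0.0759, beside 105 and 79.1 for the cytosolic SARS1. The part of the shared exon bases in this low value was not tested.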
